A study of Mus musculus with 2 samples.

Results

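Single mouse muscle stem cells that had been cultured for 96 h in galactose were examined, 121 of the 456 cells of the study. They were the wells that the deposited well sheet labels Galactose and that held at least 500 gene counts and 250 genes, spike-ins left out, and no galactose well was dropped by these minimums. The study set freshly isolated cells beside cells grown in high glucose (25 mM), low glucose (5 mM) or galactose (10 mM), with cells sorted by FACS into 384-well plates and their polyadenylated RNA tagged by a modified CEL-Seq2 protocol. All cultures received DMEM with 1 mM pyruvate, serum from calf foetuses and horses, chick embryo extract and the growth factor bFGF. Galactose cells filled 6 rows (G to L) of plate 2, and 120 low glucose cells in other rows of that plate were the cells set beside them here. The labels name no mouse strain, age or number of animals.

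Muscle stem cells lie quiet along adult fibres, carry the transcription factor Pax7, and on activation become dividing myoblasts that make Myod1. Galactose enters glycolysis through the Leloir pathway, in which galactokinase (Galk1) and Galt help turn it into glucose phosphate, and this entry is slower than that of glucose. Cultured cells given galactose therefore rely more on mitochondrial respiration for ATP, and aldose reductase (Akr1b3) can also reduce the sugar to galactitol.

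The galactose cells shared 1 library, so they are not replicates of the medium, and nothing below is a test between media. The 121 cells gave 2035682 gene counts, with 1711 in the shallowest cell, a median of 14496 and 44097 in the deepest. Genes with a count numbered from 1117 to 7654 per cell, with a median of 4835. Gene counts per count of the ERCC spike-ins, RNAs added to each well, measure the RNA of a cell. This ratio ran from 11.3 to 124 with a median of 47.8, against a median of 47.7 in low glucose. Each galactose well had its own barcode, 104 of the 121 barcodes were also used on plate 1, there by high glucose wells, and 0 were used by low glucose wells. Of the galactose counts, 72.2% fell on protein-coding genes and 22.7% on pseudogene entries, which share sequence with their parent genes and with each other. Values of such entries are uncertain, because the counting could split or move their reads.

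The label was checked against marker genes. Of 8 muscle stem cell and myoblast markers, a cell held a count of 1 to 7, with a median of 4, and 106 of the 121 cells held at least 3. Myod1, the activation factor of the myogenic lineage, was found in 100% of the cells, Myf5, its relative, in 92.6%, and Pax7 in 52.9%. Des, the muscle intermediate filament gene, stood at 0.491 CPM, counts in 1e6 gene counts of the summed galactose cells, with a count in 0.826% of the cells. Markers of other cell types were scarce. The endothelial list summed to 21.6 CPM over the 7 members found, with Flt1 at 0 and Pecam1 at 0.491 CPM. The fibro-adipogenic list summed to 32.4 CPM over 4 members, nearly all of it Col3a1, with Dcn at 0. The smooth muscle and pericyte list summed to 63.4 CPM over 9 members, 53.1 of it from Acta2, which myoblasts can also make, while Pdgfrb, Myh11 and Cnn1 were at 0. The immune list rested on Cd68 alone at 8.84 CPM, the glial list summed to 5.89 CPM over 4 members, the tenocyte list to 9.33 CPM over 2, and the mature myofibre list to 28.0 CPM over 5. Of the erythroid list 0 of 7 members were matched, so it was not analysed here. A count of 0 is taken to allow 3 counts, a level of up to 1.47 CPM and a share of up to 2.48% of cells with a count; this covers counting error only and does not limit the share of cells that hold the transcript. Counts of at least 3 markers of a single foreign type were met in 2 wells, 1 with smooth muscle or pericyte markers and 1 with those of mature fibres. The immune, tenocyte and erythroid lists had fewer than 3 members found, so no well could reach that number for these types.

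Levels below carry exact Poisson 95% intervals, again for counting error only. CEL-Seq2 tags the 3′ end of each molecule, so counts were not divided by gene length. Outside the mitochondrial genome and the ribosomal proteins, the highest entry was Gm42418 at 21670 CPM, a lincRNA entry known to collect ribosomal RNA reads. Among named protein-coding genes, the highest was Actb, the cytoplasmic beta-actin, at 4972 CPM (4875 to 5070), with 9 counts in the lowest cell, a median of 75 and 266 in the highest. The actin-severing cofilin gene Cfl1 followed at 4445 CPM, the ferritin heavy chain Fth1 at 4112, the intermediate filament Vim at 3923 and the elongation factor Eef1a1 at 3851. Behind them came the lysosomal membrane gene Lamp1 at 3428 CPM, the chaperone Hsp90ab1 at 3414, the glycolytic enzyme gene Pkm at 3196, the translation factor Eif5a at 3051, the nuclear RNA Malat1 at 2907 and Actg1, the second cytoplasmic actin, at 2857. The rest of the 15 highest were pseudogene-like or short entries, Gm15500 at 4677 CPM, Gm10925 at 3808 and Gm26384 at 3101. Each of these 15 entries had a count in all 121 cells, as did 109 genes in total. The mitochondrial genome gave mt-Rnr2 at 5103 CPM, mt-Cytb at 3306 and mt-Nd4 at 2434.

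Stress and growth control genes stood among the abundant ones. Cdkn1a, the cyclin-dependent kinase inhibitor p21, reached 1981 CPM (1920 to 2043) with 3 to 111 counts per cell. Mdm2, which encodes the ligase that removes p53, reached 1114 CPM with 2 to 109 counts per cell. Hmox1, the haem-degrading enzyme, reached 2461 CPM with 2 to 270 counts per cell. The oncoprotein gene Myc stood at 768 CPM and the G1 cyclin Ccnd1 at 242 CPM. Both Cdkn1a and Mdm2 were counted in every galactose cell, and so was Hmox1.

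Of the genes that handle galactose and aldoses, those of 2 reductases were well above the Leloir genes given here. Akr1b3, aldose reductase, stood at 518 CPM (487 to 550), with a count in 94.2% of cells, and the related reductase gene Akr1a1 at 367 CPM in 99.2% of cells. Galk1 stood at 27.0 CPM (20.4 to 35.2) with a count in 31.4% of cells and at most 4 counts in a cell. Galt stood at 7.37 CPM, Galm, the mutarotase gene, at 13.8, and Ugp2, which makes the UDP-glucose that Galt uses, at 29.5. At these levels a cell without a count cannot be told from a cell without the transcript. For Akr1b3 the ratio of the galactose to the low glucose pool was 0.764 (0.702 to 0.830, counting error only). Leaving out the 2 highest cells of each medium gave 0.754. Here and below, the highest cells left out for a gene are those furthest above expectation from their totals, scaled by the gene's spread. They need not hold the most counts.

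Other fuel genes were modest. Pdk4, the kinase that shuts the pyruvate dehydrogenase complex, stood at 137 CPM with 0 to 12 counts per cell, the deacetylase gene Sirt1 at 108 CPM, Acly, which makes cytosolic acetyl-CoA, at 80.1 CPM and Txnip, whose transcript follows sugar phosphates, at 51.6 CPM. The 74 nuclear oxidative phosphorylation genes found made up a median of 0.840% of a cell's counts, the 19 glycolysis and lactate genes 0.631% and the 31 genes of the TCA cycle and pyruvate entry 0.394%. The same medians in low glucose were 0.844%, 0.617% and 0.390%. The differentiation and contraction list summed to 1868 CPM over the 19 members found, most of it from Ankrd1, a stretch-responsive cofactor, at 1448 CPM and the tropomyosin gene Tpm1 at 248 CPM. Tnnt2, the cardiac and embryonic troponin T, stood at 46.2 CPM with a count in 43.0% of cells, Acta1 at 9.33 CPM and Myl4 at 3.93 CPM.

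Of the marker genes of these cells, Myod1 had the highest level. Myod1 stood at 871 CPM (831 to 913), with 1 count in the lowest cell, a median of 10 and 76 in the highest. Hmga2, an architectural chromatin protein of growing cells, stood at 673 CPM (638 to 710), with 0, 9 and 57 counts in the same order. Ccl2, a chemokine that draws monocytes, stood at 348 CPM (323 to 375), with 0, 3 and 95 counts. The levels of the other markers were lower. Sparc, a matrix-binding secreted protein, stood at 270 CPM (248 to 294), with 0, 2 and 56 counts. S100a6, a small calcium-binding protein, stood at 268 CPM (246 to 292), with 0, 2 and 38 counts, so its level and that of Sparc could not be told apart by counting error. The order of the other 3 markers held against counting error.

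Detection followed depth. The share of cells with a count was 96.7% for Hmga2, 90.1% for S100a6, 88.4% for Ccl2 and 81.8% for Sparc at full depth. After every cell was thinned to 1000 counts, which kept all 121 cells, it was 46.3% for Myod1 (exact binomial 95% interval 37.2 to 55.6%) and 39.7% for Hmga2 (30.9 to 49.0%). It was then 25.6% for S100a6 (18.1 to 34.4%), 21.5% for Ccl2 (14.5 to 29.9%) and 13.2% for Sparc (7.75 to 20.6%). These shares rest on 1 random draw. The share expected over all draws was 51.6% for Myod1 (50.1% in low glucose), 45.4% for Hmga2 (39.2%), 23.4% for Ccl2 (19.3%), 21.5% for S100a6 (16.1%) and 19.0% for Sparc (15.5%). The intervals stand around the single draw, which for S100a6 (25.6%) lay above its expected share (21.5%). The expected low glucose share lay below that interval for S100a6 and inside it for the other 4 markers. Because the interval depends on the draw, no difference is read from this. For Myod1 the draw gave 54.2% in low glucose, above the draw for galactose, while the expected shares had the other order. On thinning, the share of cells with a Pax7 count went from 52.9% to 4.13% (1.36 to 9.38%) and that for Myf5 from 92.6% to 34.7%. No other cell type was sorted to give the share that free RNA alone would produce; for scale, the mature fibre gene Eno3 had a count in 19.8% of the unthinned cells.

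The levels of the markers also differed between plate rows of galactose cells. Myod1 ran from 703 CPM in row I to 1114 in row H, Hmga2 from 598 to 803.5 and Ccl2 from 181 in row K to 522 in row I. Sparc ran from 180.3 in row L to 375 in row H, and S100a6 from 193 in row K to 451 in row L. Single cells weigh on these highest rows: I4 held 95 Ccl2 counts, H4 56 Sparc counts and L12 38 S100a6 counts. Each was the highest count of its gene, and row levels without these cells are not given. The galactose to low glucose ratio was 1.51 for Ccl2 (1.33 to 1.71), 1.42 for Sparc (1.24 to 1.63), 1.30 for Hmga2 (1.19 to 1.42), 1.30 for S100a6 (1.13 to 1.48) and 1.09 for Myod1 (1.01 to 1.17). These intervals cover counting error of the summed cells only. They leave out the spread between cells and are too narrow for a difference between media. Rows and medium cannot be told apart, and for each of the 5 genes the range over low glucose rows overlapped the range over galactose rows. Without the 2 highest cells of each medium the ratio for Ccl2 was 1.21, and for Sparc 1.37.

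**Figure D1:**
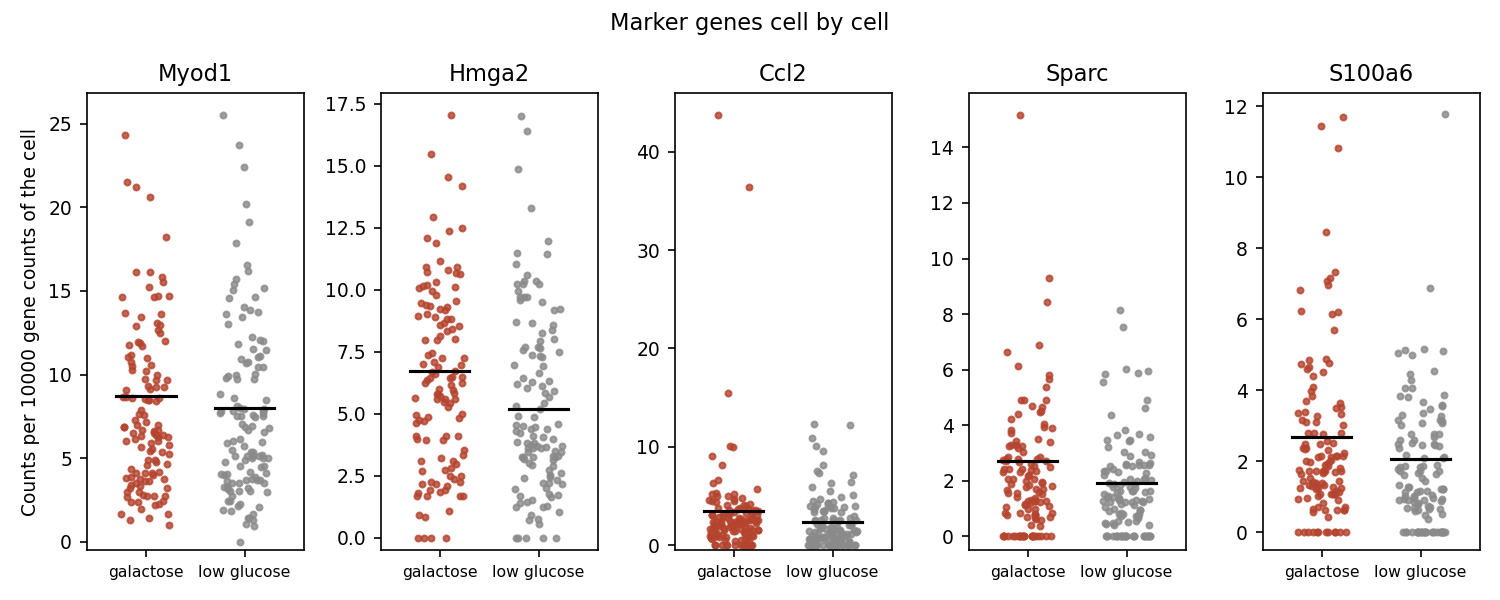
Counts per 10000 gene counts of the cell (vertical axis) for Myod1, Hmga2, Ccl2, Sparc and S100a6, with 1 point per cell for 121 galactose and 120 low glucose cells; the black line is the level of the summed cells. For Ccl2, 2 galactose cells stand apart at 43.7 and 36.4, and for Sparc 1 at 15.2.

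Variation between cells was measured as the excess CV, the coefficient of variation that remains after the counting error expected from each cell's total is taken away. A value of 0 means no more spread than counting gives. Over 1821 genes with a mean of at least 2 counts per galactose cell the median was 0.291, against 0.321 for the same genes in low glucose. The 16 spike-in species with enough counts, which carry no biology, had a median of 0.0757 and a highest value of 0.287. In the galactose cells 175 genes reached an excess CV of 0.5, a background of 9.61% of the genes measured, and 119 genes were at 0. Of the 175, 125 (71.4%) also reached 0.5 in low glucose, where 221 did. Across genes the excess CV of the 2 media had r = 0.715, a description over genes, which are not independent. Named protein-coding genes reached 0.5 in 69 of 1338 cases and had a median of 0.260, while other entries, mostly pseudogenes and short RNAs, reached it in 106 of 483 (21.9%).

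**Figure D2:**
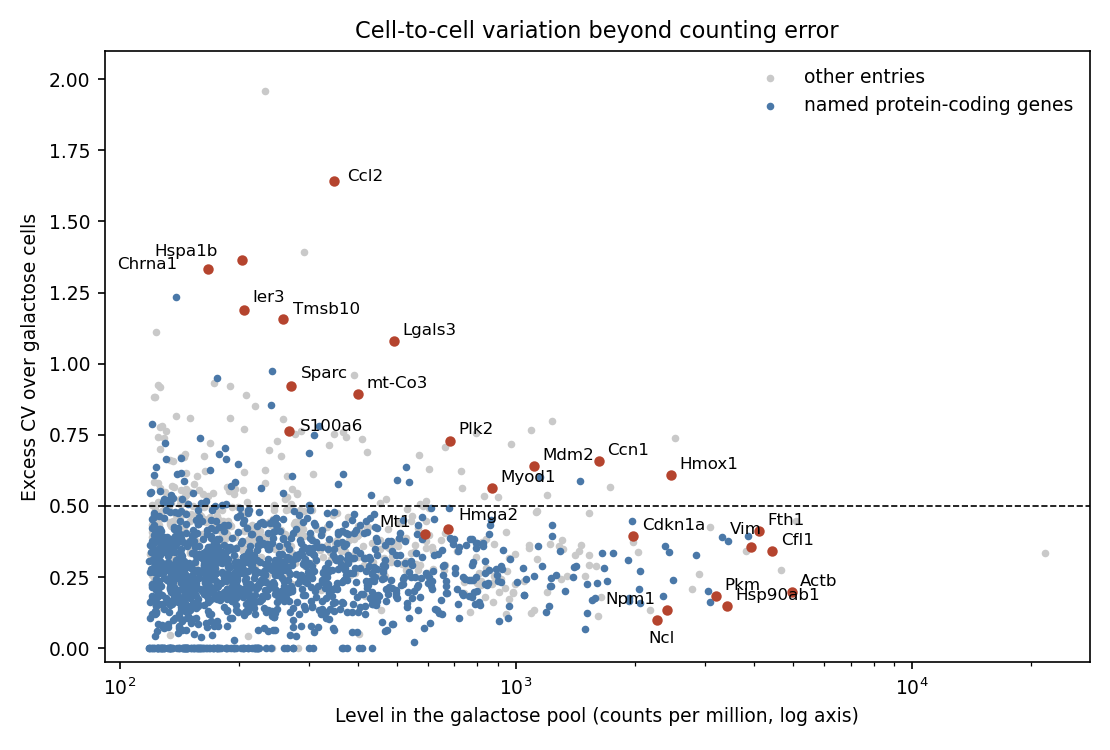
Level in the galactose pool (CPM, log axis) against excess CV over the 121 galactose cells for the 1821 measured genes; red points are genes named in the text and the dashed line marks 0.5. Ccl2 lies at 1.64, far above abundant genes such as Actb at 0.196 and Ncl at 0.099.

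Of the named protein-coding genes, Ccl2 was the most uneven. Ccl2 had an excess CV of 1.64, against 0.818 in low glucose. Its highest counts were 95 in well I4 and 85 in well G8, followed by 25 and 22, so the leading pair of cells held 25.4% of all its counts. Without those 2 cells its excess CV was 0.608, and 0.795 in low glucose without that medium's 2 highest cells, so the order of the media turned. Hspa1b, the inducible HSP70 chaperone, had 1.37 against 1.09 in low glucose, with 48 counts in well G4, 35 in J20 and a median of 2. Without its 2 highest cells it stayed at 0.990. Hspa1b has a near-identical neighbour, Hspa1a, at 90.4 CPM, so reads could have been split between them. Chrna1, the muscle acetylcholine receptor subunit, had 1.33 against 0.989, with a count in 68.6% of cells and at most 34 counts in a cell. Without its 2 highest cells for their totals it had 1.21.

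The imprinted zinc finger gene Peg3 had 1.23 against 0.745, but 33 of its counts came from well H8 and the next cell held 15, and without H8 it had 0.776. The early response gene Ier3 had 1.19 against 1.33, with 42 counts in I4. Tmsb10, an actin monomer binder, had 1.16 against 0.914, with 66 counts in L12 and 25 in the next cell, and without L12 it had 0.589. Single cells thus held much of the spread of Peg3 and Tmsb10. Lgals3, a galectin, had 1.08 against 1.06, with 76 counts in K21, 58 in I5 and 48 in K9. The G1 cyclin Ccnd1 had 0.98 against 0.83, and Sparc 0.921 against 0.690. Ccnd1 had 0.877 without its 2 highest cells, whereas Sparc had 0.534 once H4, its highest cell, was left out. The mitochondrial gene mt-Co3 had 0.893 against 1.13. S100a6 had 0.762 against 0.744, Myf5 0.614 against 0.604, Myod1 0.564 against 0.560 and Hmga2 0.421 against 0.531. Most others of the 20 highest were entries without a gene name or shared with ribosomal RNA or pseudogenes: Gm26917 at 1.96 (0.741 without 1 cell), Mir6236 at 1.39, Gm43743 at 1.11, Gm11410 at 0.962, Gm9658 at 0.933, Gm12138 at 0.924, Gm22774 at 0.921, Gm22751 at 0.918 and Gm8349 at 0.889.

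Some abundant genes were even. The nucleolar proteins Ncl and Npm1 had an excess CV of 0.099 and 0.135 at 2272 and 2415 CPM, Hsp90ab1 0.147, Pkm 0.183 and Actb 0.196. The 119 genes tied at 0 included Vdac3-ps1, U2surp, M6pr, E2f4, Yrdc, Appbp2, Ppa1, Idh3b and Ddx24, with mean counts from 2.05 to 3.26 per cell, where counting error is large. Akr1a1 was also at 0, with a mean of 6.17 counts.

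The members that reached 0.5 were counted by list, beside the 9.61% of all measured genes, with no test between lists. Among named protein-coding genes alone the background was lower, 69 of 1338. Of activated myoblast genes 5 of 8 did (Myod1, Myf5, Id1, Id2 and Chrna1; median 0.563), of chemokines and secreted signals 2 of 4, of matrix genes 3 of 6, of p53 targets 3 of 10 (Mdm2, Plk2 and Trp53inp1; median 0.424), of heat shock genes 2 of 8, of immediate early genes 3 of 13, of S100, annexin and galectin genes 3 of 13, of antioxidant, ferritin and metallothionein genes 3 of 16 and of actin and cytoskeletal genes 5 of 23. These lists hold genes that earlier looks at these data had pointed to. Other regulated lists had none at 0.5: amino acid and integrated stress genes 0 of 9 (median 0.256), endoplasmic reticulum and unfolded protein genes 0 of 7 (0.265), histone acetylation 0 of 6 (0.332), S phase and mitosis 0 of 4 (0.338) and interferon 0 of 3 (0.408). Of the metabolic and housekeeping lists, translation factors had 0 of 22 (median 0.191), proteasome and ubiquitin genes 0 of 28 (0.146), the TCA cycle 0 of 14 (0.192), glycolysis 0 of 6 (0.243), galactose and aldose handling 0 of 5 (0.452), nuclear oxidative phosphorylation 1 of 21 (0.170; Ndufv1) and ribosomal proteins 1 of 60 (0.293; Rps29). The mitochondrial genome had 2 of 9, mt-Co1 at 0.601 and mt-Co3, with 5 of 9 in low glucose.

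Summed lists gave more counts per cell. The ribosomal protein genes took 1.81% of counts in the lowest cell, a median of 3.49% and 6.30% in the highest. The mitochondrial genome took 0.498%, 1.79% and 3.97% in the same order, and the actin and cytoskeletal list 0.904%, 2.74% and 3.66%. The p53 targets took 0.223%, 0.666% and 2.18%, the highest in well K9, where 109 of 11028 counts were Mdm2. The heat shock genes took 0.465%, 0.751% and 2.04%, the highest in G4, also the cell with most Hspa1b. The sums of the proteasome list and of nuclear oxidative phosphorylation were the most even, with an excess CV of 0.0634 and 0.0936. Sums over many genes are not on the scale of single spike-in species, whose median was 0.0757. The single genes measured in these lists had medians of 0.146 and 0.170. The sums of differentiation genes and of chemokines varied most among these lists, with 0.504 and 0.496, against 0.481 and 0.35 in low glucose. Most of the differentiation sum came from Ankrd1. The highest chemokine share, 0.939%, was in well I4, where 95 of 21730 counts were Ccl2. Neither sum was recomputed without these.

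Pairs of genes were compared by Pearson r over the 121 galactose cells after each count was set against the value expected from the cell's total and the gene's own spread. The cells share a plate, a library and a medium, and the totals enter every gene, so r describes these cells and has no p. Among 1119 genes with a mean of at least 3 counts, 286 pairs had r of at least 0.8, and 248 of these (86.7%) share at least 50 stretches of 31 bases between their transcripts, as a gene and its pseudogenes do, while 0.160% of all pairs share that much. The highest were Gm15459 with Gm8355 at 0.97, Gm22133 with Gm15590 at 0.97 and Ftl1-ps1 with Gm15590 at 0.95. Hspa8, the constitutive HSP70, with its copies Gm15459 (0.95) and Gm8355 (0.93) followed, then Rplp0 with Gm8730 at 0.93 and Eef1a1 with Gm26384 at 0.93. Such pairs may be 1 transcript counted in 2 places, so mainly pairs of named protein-coding genes without shared sequence are described further. Here and below, pairs without shared sequence are those that share fewer than 50 stretches of 31 bases, so some share a few. They numbered 313158, with a median r of 0.03. Of these, 3456 reached 0.4, a background of 1.10%, and 913 fell to -0.4 or below. In low glucose 3396 pairs reached 0.4, and 1448 did in both media, 41.9% of the galactose pairs and 42.6% of the low glucose pairs.

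The strongest pairs linked the mitochondrial genome, Cfl1 and Lamp1. Within the mitochondrial genome, mt-Nd4 and mt-Cytb had r = 0.84 (0.89 in low glucose) and mt-Nd1 and mt-Cytb 0.82 (0.72). Cfl1 was correlated with mt-Cytb at 0.82 (0.81), with Lamp1 at 0.81 (0.86), with mt-Nd4 at 0.78 (0.75), with Pcbp2, an RNA-binding protein, at 0.75 (0.74), and with Banf1, a chromatin-bridging protein, at 0.74 (0.74). The opposite side held the translation genes. The lowest pairs were Eef1g with Lamp1 at -0.65 (-0.46), Cfl1 with Eef2 at -0.62 (-0.61), Rpl5 with Cfl1 at -0.61 (-0.51), the sorting nexin gene Snx3 with Eef2 at -0.61 (-0.43) and Eef1g with Cfl1 at -0.60 (-0.45). Rps4x and Eef2, a ribosomal protein and an elongation factor, had 0.70 (0.50). Hmga2 sat on the Cfl1 side, with r = 0.56 to Cfl1 (0.56) and 0.55 to Lamp1 (0.59), and -0.49 to Rplp0 (-0.36). Cdkn1a sat there too, with 0.64 to Lamp1 (0.59) and 0.64 to Cfl1 (0.57), and -0.58 to the splicing factor Hnrnpa1 (-0.42).

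The first principal component of the 792 named protein-coding genes held 12.7% of the variance (13% in low glucose, where the loadings had r = 0.94 with those in galactose). Shared sequence was filtered by pair and not by gene, so genes that share sequence, such as Actb and Actg1, enter the components together. Of its 25 highest genes 17 were ribosomal proteins (52 of the 792 genes) and 4 translation factors (21 of the 792). They were led by Rplp0, Eef2, Eef1g, Rpl5 and Rps4x. Its low side was led by Cfl1, mt-Cytb, mt-Nd4, Lamp1, Hnrnpc and Cdkn1a. Over the cells the component had r = 0.55 with the log ratio of gene to spike-in counts, 0.14 with the log total and 0.93 with the share of counts on pseudogene entries. The part of RNA amount, and of reads placed on pseudogenes of ribosomal protein genes, in this axis was not tested. As summed lists, ribosomal proteins and translation factors had r = 0.64 (0.63 in low glucose), while ribosomal proteins had -0.57 with the mitochondrial genome (-0.43), -0.61 with the TCA cycle (-0.66) and -0.56 with the actin list (-0.39). The actin list moved with the TCA list at 0.52 (0.45).

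**Figure D3:**
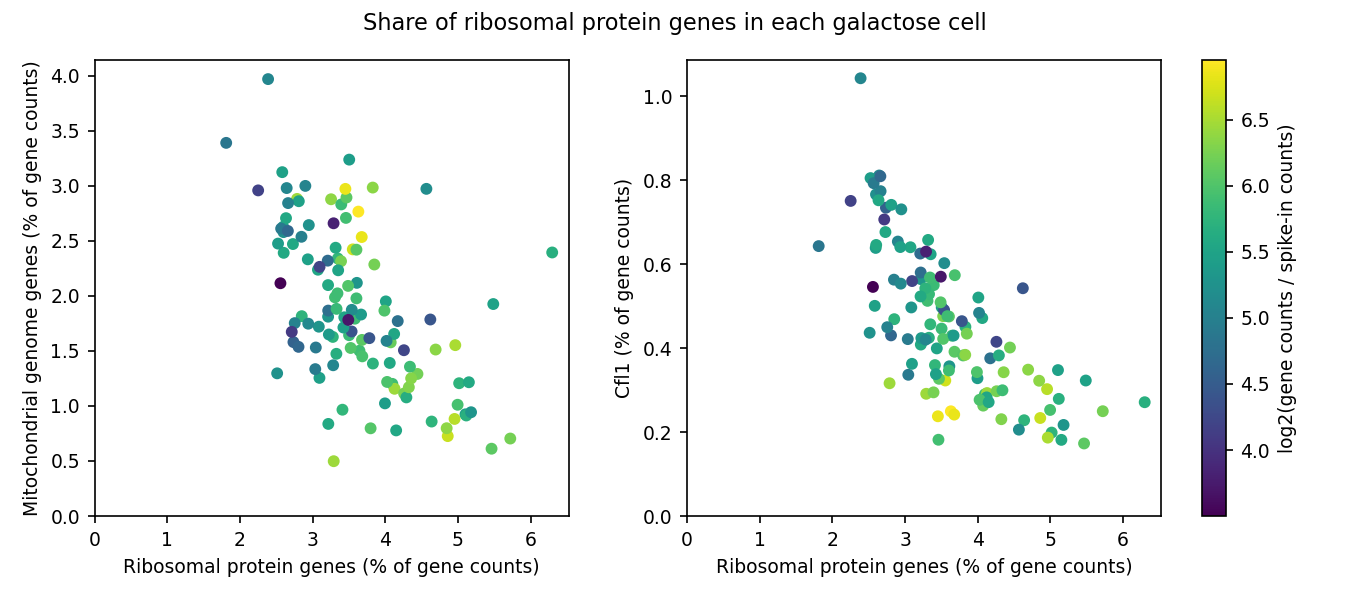
Share of a cell's counts on ribosomal protein genes (horizontal, %) against the share on the mitochondrial genome (left, %) and on Cfl1 (right, %), 1 point per galactose cell, coloured by the log2 ratio of gene to spike-in counts. Both shares fall as the ribosomal protein share climbs from 1.81% to 6.30%.

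The second component held 3.24% of the variance. Its high side was led by Actb, Ptma, Actg1, Pfn1, Eno1b and Ldha, with 7 of 25 genes from the actin list (19 of the 792 genes) and with Ankrd1, Ccnd1 and Myod1 further down. Its low side was led by Mdm2, Ppp1r15a, Polr2a, Brd2 and Cdkn1a, with 4 p53 targets (8 of the 792) and 4 ribosomal proteins (52 of the 792) among the 25. It had r = 0.45 with the log total and 0.44 with the log ratio to spike-ins, and its loadings had r = 0.66 with those in low glucose. Several lists of stress genes took a larger share in cells with less RNA for the spike-ins. Their r with the log ratio was -0.65 for immediate early genes and -0.53 for amino acid and integrated stress genes. For p53 targets it was -0.47 and for heat shock genes -0.43. In low glucose these were -0.62, -0.61, -0.63 and -0.53. The hypoxia list had -0.31 in galactose (-0.37 in low glucose) and the endoplasmic reticulum and unfolded protein list -0.23 (-0.37). The antioxidant, ferritin and metallothionein list did not share this, with 0.11 (0.03). Whether RNA amount sets these pairs was not tested.

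Further pairs also reached 0.4. Several of those below hold leading genes of these axes, such as Mdm2 with Phlda3 and Ldha with Ccnd1, and are not separate from them. The metallothioneins, small proteins that bind zinc and copper, were not among the leading genes. Mt1 and Mt2 had r = 0.52 over the galactose cells (0.54 in low glucose, and 0.51 with the highest cell of each gene left out). Mt1 stood at 589 CPM with 0 to 41 counts per cell and Mt2 at 418 CPM with 0 to 36, and well L12 was highest for both. The genes are neighbours on chromosome 8, and the 150 bases before each start site, from RefSeq on GRCm38.p6, are shown because metal-responsive transcription is known to act there. Mt1 is at chr8:94178939-94179088 and Mt2 at chr8:94172468-94172617, both on the + strand. Capitals mark matches to the core of the metal response element, TGCACNC or TGCGCNC on either strand.
Mt1: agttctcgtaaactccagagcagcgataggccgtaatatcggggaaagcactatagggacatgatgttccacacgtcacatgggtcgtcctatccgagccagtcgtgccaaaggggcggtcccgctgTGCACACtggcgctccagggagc
Mt2: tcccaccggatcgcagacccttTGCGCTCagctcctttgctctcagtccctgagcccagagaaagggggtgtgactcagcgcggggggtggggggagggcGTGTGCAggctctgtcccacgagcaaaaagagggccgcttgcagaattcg
Mt1 held 1 match and Mt2 held 2. Of 32851 promoter windows of this length, 14.7% held at least 1 and 2.89% at least 2. A match is a string of letters and not a measured site.

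Of the 21 pairs of the heat shock list 2 reached 0.4 (median 0.12, 0.02 in low glucose), beside the background of 1.10%. The highest was Hspa1b with Hsp90ab1 at r = 0.50 (0.37 in low glucose, 0.35 without the highest cells). Hsp90aa1 had 0.53 with the ubiquitin gene Ubb (0.61, 0.44). The Hspa1b window, chr17:34959239-34959388 on the - strand, is shown with the heat shock element core, GAANNTTC or TTCNNGAA on either strand, in capitals.
Hspa1b: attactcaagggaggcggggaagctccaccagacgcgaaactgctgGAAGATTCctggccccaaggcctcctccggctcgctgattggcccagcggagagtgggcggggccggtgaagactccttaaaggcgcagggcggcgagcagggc
It held 1 match, and 7.73% of all windows held at least 1. The summed heat shock list moved with the amino acid and integrated stress list at r = 0.50 (0.63 in low glucose).

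Among p53 targets, Mdm2 had r = 0.59 with Phlda3, a p53-induced inhibitor of Akt (0.38 in low glucose, 0.51 without the highest cells). Of the 28 pairs in this list 2 reached 0.4, and the median was 0.16, beside 0.03 for all pairs. Mdm2 with Cdkn1a had 0.22. Mdm2 with Lgals3 had 0.40 but 0.12 without the highest cells, and well K9 held the most Mdm2 and 48 counts of Lgals3. Of the 66 pairs of the antioxidant, ferritin and metallothionein list 2 reached 0.4, with a median of 0.05. Hmox1 had 0.40 with Gclm, a subunit of the glutathione-synthesising ligase (0.40), 0.40 with the haem transporter gene Slc48a1 (0.31) and 0.36 with Fth1 (0.46). The sum of galactose and aldose genes had r = 0.43 with the sum of this list, against 0.14 in low glucose. Akr1b3 alone had 0.31 with Hmox1 (-0.04), and its highest partner was Plk2 at 0.33, so no partner of Akr1b3 reached 0.4.

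The highest partners of Myod1 had varied roles. The first was Dmpk, the myotonic dystrophy kinase gene, at r = 0.57 (0.29 in low glucose, 0.61 without the highest cells), followed by Sparc at 0.50 (0.26, 0.44), the splicing factor Srsf1 at 0.46 (0.15, 0.39), Ankrd1 at 0.44 (0.39, 0.42) and Banf1 at 0.44 (0.32, 0.40). Its lowest was the initiation factor Eif1 at -0.48. Sparc in turn had 0.46 with Ankrd1 (0.43, but 0.29 without the highest cells). Well H4 was highest for both Myod1 (76) and Sparc (56) and the second highest for Chrna1 (32), with a total of 36886. Myod1 and Myf5 had r = 0.05 (0.15 in low glucose), and Myod1 and Chrna1 0.31 (0.31). The summed activated myoblast genes had r = 0.50 with the matrix genes (0.30 in low glucose) and 0.49 with the mitochondrial genome (0.35). Chrna1, with a mean of 2.82 counts under the minimum for pairs, had 0.52 with Ldha (0.23).

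Myod1 protein binds E-boxes, so the windows of Sparc (chr11:55420081-55420230, - strand) and Chrna1 (chr2:73580339-73580488, - strand) are shown with the E-box CAGCTG, which reads alike on both strands, in capitals.
Sparc: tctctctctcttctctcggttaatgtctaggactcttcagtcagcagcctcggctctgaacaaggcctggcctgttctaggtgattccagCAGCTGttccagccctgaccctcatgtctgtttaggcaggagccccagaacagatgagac
Chrna1: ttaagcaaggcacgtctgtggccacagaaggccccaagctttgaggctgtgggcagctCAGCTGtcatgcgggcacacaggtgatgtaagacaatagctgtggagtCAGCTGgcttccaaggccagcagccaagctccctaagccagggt
Sparc held 1 match and Chrna1 held 2. At least 1 was found in 8.39% of all windows and at least 2 in 0.536%. Both windows were chosen after the values were seen, and Chrna1 had r = 0.31 with Myod1. The windows of the higher partners Dmpk, Srsf1, Ankrd1 and Banf1 are not shown. Whether Myod1 acts at any of these genes here was not tested.

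Of the other markers, S100a6 had its highest r with Tmsb10, at 0.50 (0.43 in low glucose), and with Lgals1, a galectin, at 0.43 (0.39), and Tmsb10 and Lgals1 had 0.50 (0.40). Well L12 was the highest for S100a6, Tmsb10, Lgals1, Hspa5, Mt1 and Mt2, with a total of 33251, and without the highest cells these 3 values were 0.33, 0.31 and 0.33. The 5 highest partners of Ccl2 lost their r with the highest cells. Ccl2 had 0.45 with Ier3 (0.14 in low glucose), 0.44 with Rhob, a small GTPase (0.07), and 0.44 with Odc1, the first enzyme of polyamine synthesis (-0.02), and well I4 was the highest for all 4 genes, with 95, 42, 64 and 160 counts. Without the highest cells these were 0.07, -0.01 and 0.12. Tagln2, a transgelin, had 0.42 with Ccl2 (0.13 without the highest cells). Nfkbia, the NF-kappaB inhibitor, had 0.37 (0.005 without the highest cells), and its highest cell, G8 with 47 counts, was the second for Ccl2. Ier3 and Odc1 kept 0.36 of 0.56 (0.10 in low glucose). No doublet caller was run, and whether I4, G8, H4 or L12 held more than 1 cell was not tested; the deepest cell had 44097 counts.

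**Figure D4:**
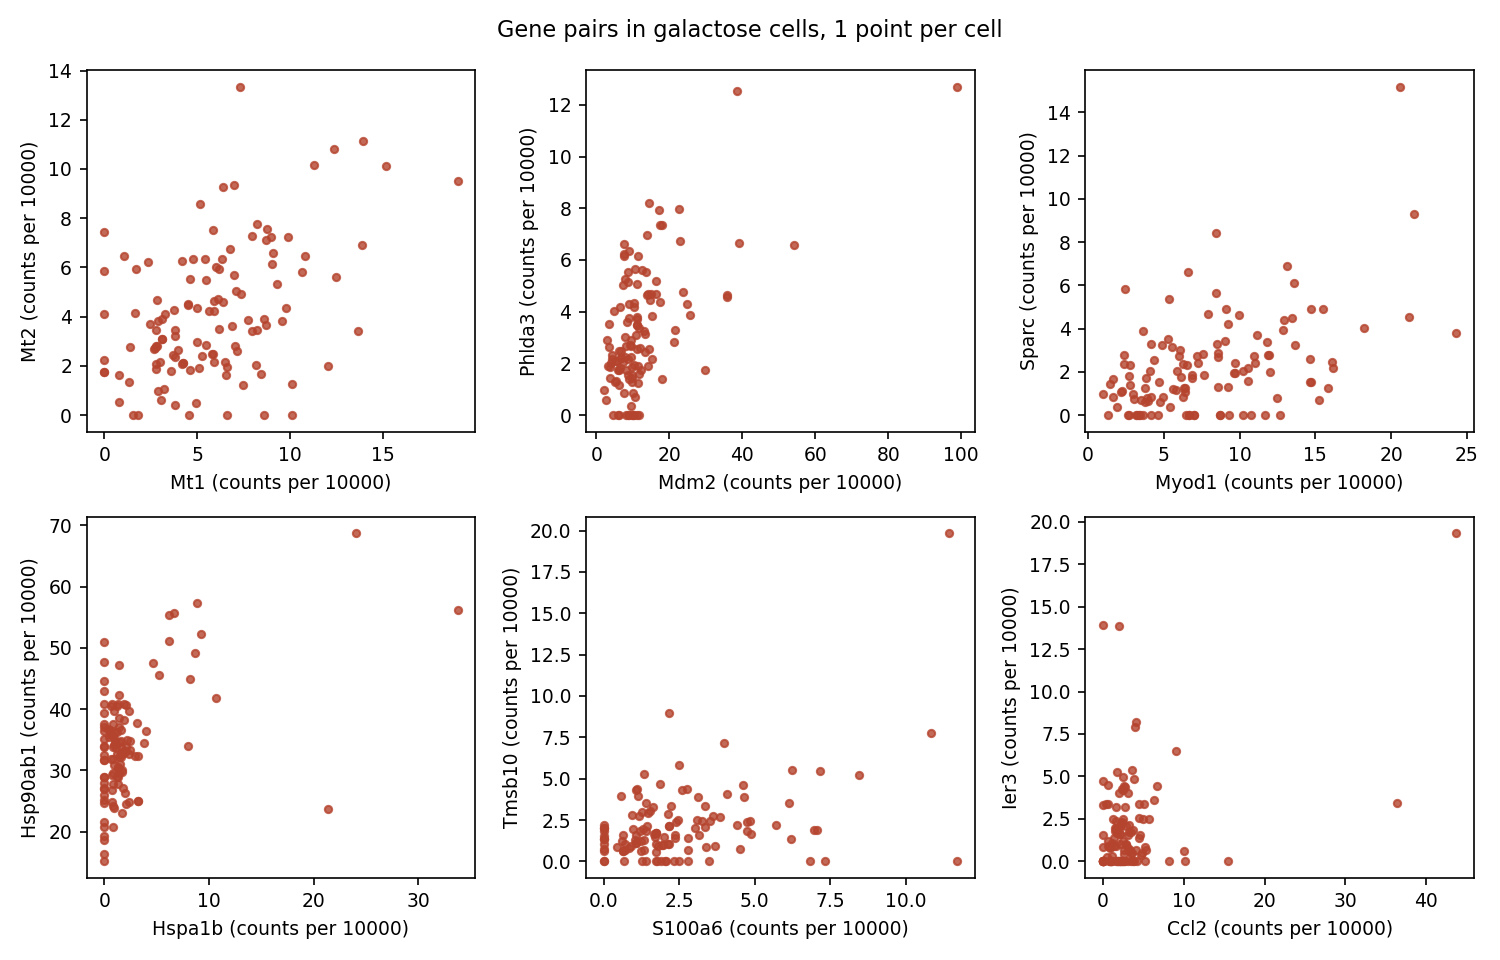
Counts per 10000 gene counts for 6 gene pairs, 1 point per galactose cell. Mt1 with Mt2 and Myod1 with Sparc spread over many cells, whereas Ccl2 with Ier3 has 1 cell, I4, at 43.7 and 19.3 that stands far from the rest.

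Of the 170 pairs of the actin list 8 reached 0.4 (median 0.11). Actg1 had r = 0.45 with the matricellular gene Ccn1 (0.11 in low glucose), and Ldha, lactate dehydrogenase, had 0.50 with Ccnd1 (0.16). Actb with Actg1 had 0.65 (0.60), but the 2 share 106 stretches of 31 bases. Within lists, 13 of 21 pairs of the mitochondrial genome reached 0.4 (median 0.53, 0.61 in low glucose) and 158 of 1326 ribosomal protein pairs did (median 0.25, 0.27). None of the 78 pairs of nuclear oxidative phosphorylation genes did (median 0.02), nor any of the 15 glycolysis pairs (median 0.21), and 1 of 153 proteasome and ubiquitin pairs did. The plot of pairwise r shows the galactose values below and the low glucose values above its diagonal.

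**Figure D5:**
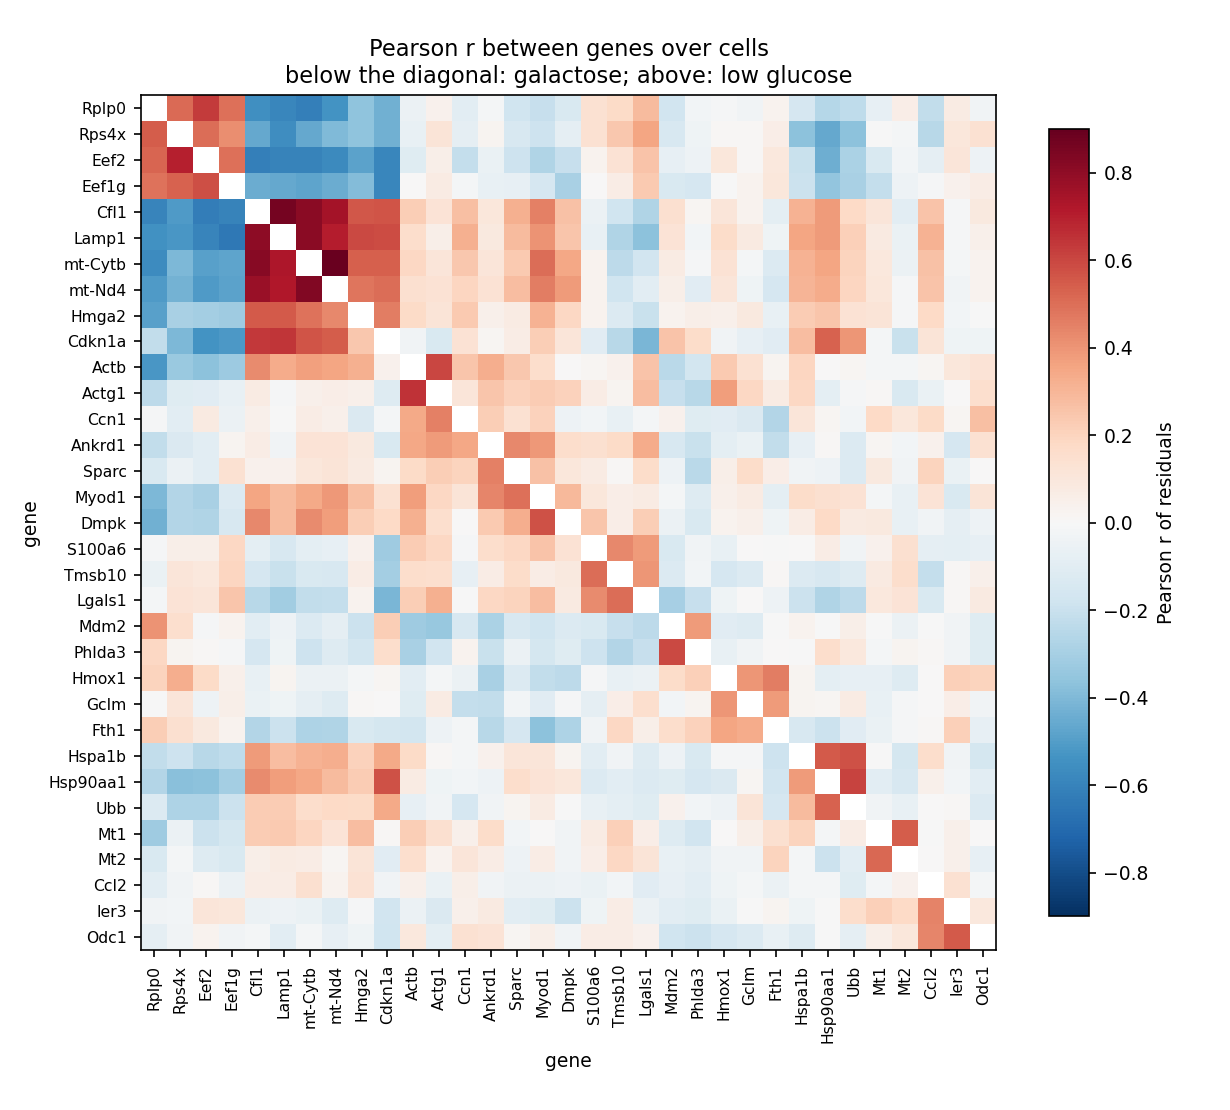
Pearson r between the genes on the axes over 121 galactose cells (below the diagonal) and 120 low glucose cells (above), with red for positive and blue for negative r. The ribosomal and translation genes oppose the block of Cfl1, Lamp1, mt-Cytb and mt-Nd4 in both media, while Ccl2 with Ier3 and Odc1 is a darker red below the diagonal than above it.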

How the data were processed

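Single cells were profiled with CEL-Seq2, in which bases 1 to 6 of the first read hold the molecular tag and bases 7 to 14 the well barcode, per the labels. The authors deposited raw counts per gene and well, not normalized. For collapsing by molecular tag, aligner, read counter, genome build and gene annotation, nothing is stated (not given in the sources used here). EdgeR is listed, with no version or role, per the submitters' processing notes. Conditions came from the deposited well sheet. Of 19325 gene identifiers, 19251 (99.6%) received a symbol from GENCODE M21. Neither Mki67 nor Myog was analysed here.

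The analysis used Python 3.11.15, numpy 2.4.6, scipy 1.17.1 and pandas 2.3.3, with scran 1.30.0 and edgeR 4.0.16 (TMM factors) in R 4.3.3 for alternatives. The excess CV squared is the summed squared deviation of the counts from expectation (pool share times well total), less the expected Poisson part, over the summed squared expectation, with a factor n/(n-1). Negative values became 0. Pairs used Pearson residuals with that variance. The highest cells left out for a gene were those with its highest residuals. Thinning drew counts without replacement to 1000 per cell. Expected shares over all draws were hypergeometric and were added after the data were seen. The steps were tested on simulated data. No test between media was run, since each medium had 1 library. Galactose and low glucose wells share that deposited library and differ in rows.

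The genes named were the 15 highest by CPM, the 20 highest by excess CV and 10 of those tied at 0, the 15 highest and 5 lowest pairs, up to 4 members per list, 5 partners per gene looked up and a fixed set from Pax7 to Tnnt2. Not every gene so chosen is printed. The restriction of pairs to protein-coding genes without shared sequence, the promoter windows and some further members were chosen after the values were seen. The members, the 36 lists (783 of 926 genes found) and the rules were chosen with earlier results of these data known. Alternatives changed the depth minimum, the total, the scaling, the thresholds, plate rows and single wells.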

Additional observations from a re-analysis of the deposited data

How the results depend on the processing

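Under every alternative run for it, the median excess CV moved by less than its SD over plate rows, 0.0500. The ratios to low glucose were recomputed only with TMM factors, with equal weight per cell and without the 2 highest cells. Under these no ratio of the 5 markers crossed 1. They were not recomputed with plate rows left out or with other depth minimums. The number of genes with an excess CV of at least 0.5 (175; named protein-coding 69) followed the limits set: 396 and 195 at a minimum mean of 1 count, 46 and 20 at 5, 422 and 194 at a threshold of 0.4, and 58 and 20 at 0.7. Thinned to 5000 counts it was 58 of 424 genes and 26. Pairs with r of at least 0.4 among all entries (14014) became 454 on thinning to 5000 counts, where 27730 were left, 8471 at a minimum mean of 5, 40110 at r of at least 0.3 and 3459 at 0.5. Distinct protein-coding pairs (3456) became 140, of 10147 left, on thinning, 1907 with log2 values, 12820 at 0.3 and 713 at 0.5. Weighting cells equally gave Myod1 at 795 CPM and Sparc at 225 CPM. Leaving out the 2 highest cells, added after the data were seen, gave Ccl2 at 266 CPM, Sparc at 239 CPM and a Ccl2 ratio of 1.21. Leaving out each plate row in turn gave 821 to 907 CPM for Myod1, 305 to 381 for Ccl2, 152 to 208 genes with an excess CV of at least 0.5 and 3344 to 4470 distinct pairs. The cause of these moves was not tested, except that stricter limits leave fewer genes. No paired analysis was possible because each medium had 1 library. Depth limits detection: of 24 thinned shares 20 moved beyond their interval.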

Other observations

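Several groups of genes belong to none of the sets above. Of the markers of quiet stem cells, Cd34, a surface sialomucin, stood at 258 CPM with a count in 84.3% of the galactose cells and an excess CV of 0.545, and Itga7, the laminin-binding integrin, at 145 CPM with 0.589. Vcam1, an adhesion molecule used to sort muscle stem cells, stood at 50.1 CPM with a count in 38.0% of cells, and Spry1, an inhibitor of growth factor signals, at 71.7 CPM in 60.3%. Only 3 genes of this list had enough counts for pairs. Of their 3 pairs 0 reached r = 0.4, beside the background of 1.10% of pairs, so little can be read from this. Of the cell division genes, the replication clamp Pcna stood at 344 CPM in 92.6% of cells with an excess CV of 0.276, and Tpx2, a spindle factor, at 30.0 CPM in 31.4%. Summed, genes of S phase and mitosis took 0.0648% of counts in the lowest cell, a median of 0.227% and 0.846% in the highest. The tubulin genes Tubb5 and Tuba1b, had r = 0.42 (0.26 in low glucose).

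The integrated stress factor Atf4 was counted in every galactose cell, at 1601 CPM with an excess CV of 0.229. Its target Ppp1r15a, which restores translation, stood at 678 CPM with 0.492 and had r = 0.43 with the amino acid carrier subunit gene Slc3a2 (0.44 in low glucose). The AP-1 member Fosl1, at 1135 CPM, had r = 0.47 with the zinc finger gene Klf6 (0.41). Among matrix genes, Col5a2 stood at 303 CPM with an excess CV of 0.388, against 0.663 in low glucose. In the interferon list the class I chain B2m stood at 259.9 CPM with 0.219, and its r with H2-K1 was 0.33 (0.16).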
